A study of Mus musculus with 26 samples.

Results

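Myog, a transcription factor gene of skeletal muscle, and Ckm, a creatine kinase gene of skeletal and cardiac muscle, were followed through 13 hearts of mouse embryos at embryonic day 12.5. Members were all probe sets that the platform annotation names Myog or Ckm, which gave 1 Myog probe set, d90156_s_at on the A array, and 2 Ckm probe sets, Msa.2213.0_s_at and X03233_s_at on the B array, here called the Msa and the X03233 probe set. These features were 3 of the 13179 probe sets of both arrays, and no probe set with several gene symbols included either gene. The genes were selected with earlier results of the same hearts known, being chosen by their measured values per heart across genotypes and heart numbers and by the agreement between probe sets. Those values are therefore given as a description, without p-values for the members.

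The mouse line carries an Nkx2.5 allele from which the NK2-specific domain is deleted. Nkx2.5 is a DNA-binding regulator of heart development, and no probe set is annotated to it, so its own level was not analysed here. The hearts were labelled wild-type (5 hearts, numbered 1, 2, 7, 9 and N1), heterozygous for the deletion (4 hearts, 5, 6, 12 and N2) or null (4 hearts, 3, 4, 8 and N3), so that the wild-type controls carry no deleted allele. The labels name no strain, sex, litter or further allele, no treatment is named, and whether any hearts shared a litter is not stated. Total RNA was taken from the entire heart, so fewer cells of a type and less RNA per cell cannot be told apart.

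Myog encodes myogenin, a basic helix-loop-helix transcription factor that pairs with E proteins, binds E-box sequences and drives terminal differentiation of skeletal myoblasts. Together with Myod1, Myf5 and Myf6 it forms the myogenic regulatory factors, which are known from skeletal muscle and not from cardiac muscle. Ckm encodes the muscle isoform of creatine kinase, which regenerates ATP from phosphocreatine near the contractile filaments of skeletal and cardiac muscle. An enhancer upstream of Ckm that binds these factors in skeletal myoblasts is a textbook target of the family.

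The 250 bases before the transcription start of each gene are shown because E-boxes are the letters through which myogenin and its relatives act. The sequences are from RefSeq (build GRCm38.p6), Myog at chr1:134289754-134290003 and Ckm at chr7:19410844-19411093, both on the plus strand and 5′ to 3′, with E-boxes (CANNTG) in capitals.
Myog: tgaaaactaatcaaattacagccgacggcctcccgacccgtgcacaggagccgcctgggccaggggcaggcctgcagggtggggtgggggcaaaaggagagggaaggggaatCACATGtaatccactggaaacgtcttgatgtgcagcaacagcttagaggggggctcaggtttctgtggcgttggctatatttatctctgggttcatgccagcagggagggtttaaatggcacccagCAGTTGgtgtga
Ckm: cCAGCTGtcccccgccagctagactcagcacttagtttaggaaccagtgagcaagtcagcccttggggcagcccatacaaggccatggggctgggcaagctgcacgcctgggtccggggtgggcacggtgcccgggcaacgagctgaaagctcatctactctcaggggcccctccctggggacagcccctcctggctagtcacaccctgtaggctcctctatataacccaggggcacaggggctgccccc
The Myog window held 2 E-boxes, CACATG starting at position -138 and CAGTTG at -12 from the start, and the Ckm window held 1, CAGCTG at -249. Of 32851 RefSeq promoter windows of this length, 66.2% held at least 1 E-box and 31.8% held at least 2, so neither count sets these genes apart. The letters CAGCTG, searched as a kind of E-box of their own, occurred in 13% of windows and in Ckm but not in Myog. The letters AAGTG, the core of the site known for NK2 homeodomain proteins such as Nkx2.5, were searched on both strands. They were found in the Ckm window at -222, on the minus strand, and not in the Myog window, against 40.7% of all windows. The MEF2 consensus was searched as the strict string YTAWWWWTAR and the CArG box of serum response factor as CCWWWWWWGG (Y is C or T, W is A or T, R is A or G). Neither had a match in either window, against 2.9% and 1.5% of all windows with one. In the Myog window the letters ctatatttat miss the MEF2 string only at their last base, so no match does not mean no MEF2 site. These are matches of letters and say nothing about binding. Sequence farther upstream was not searched, and the Ckm enhancer named above was not located, so the Ckm matches are not assigned to it.

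Intensities were linear, with a background signal subtracted so that negative values occur. Values under 2 times the noise of a table (a floor of 887 on A arrays and 1373 on B arrays) were treated as not measurable and raised to the floor before taking log2. Of the 26 arrays 10 had blank cells and 6 were mostly blank, which left Myog without a value in wild-type heart 1 and in heterozygous hearts 6 and N2, and the Msa probe set of Ckm without one in wild-type hearts 9 and N1 and null heart 3. All 3 probe sets passed the filter on low values, which asked for at least 4 arrays above the floor, and were among the 4494 probe sets tested. The names of all 3 carry the suffix _s, which marks probe sets whose probes may be shared by similar transcripts. The tissue label held up against cardiac genes, since all 14 probe sets of 11 cardiac muscle genes on the arrays were above the floor in every heart with a value.

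The Myog signal was weak and stood above the floor in 5 of the 10 hearts with a value. In wild-type hearts it was 1561 in heart 2, 700.8 in heart 7, 566.0 in heart 9 and 82.0 in heart N1. Only heart 2 was above the floor. In heterozygous hearts it was 1454 in heart 5 and 1049 in heart 12, both above the floor. In null hearts it was 2064 in heart 3, 1833 in heart 4, 779.2 in heart N3 and -488.9 in heart 8, so the null group held the highest value of the series and also values under the floor, among which there is no order. Its mean was 1047 ± 1167 (SD, n = 4) in null, 1251 ± 287 (n = 2) in heterozygous and 728 ± 616 (n = 4) in wild-type hearts. The order heterozygous, null, wild-type therefore did not separate any neighbours beyond their spread, and the groups overlapped in all comparisons.

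**Figure D1:**
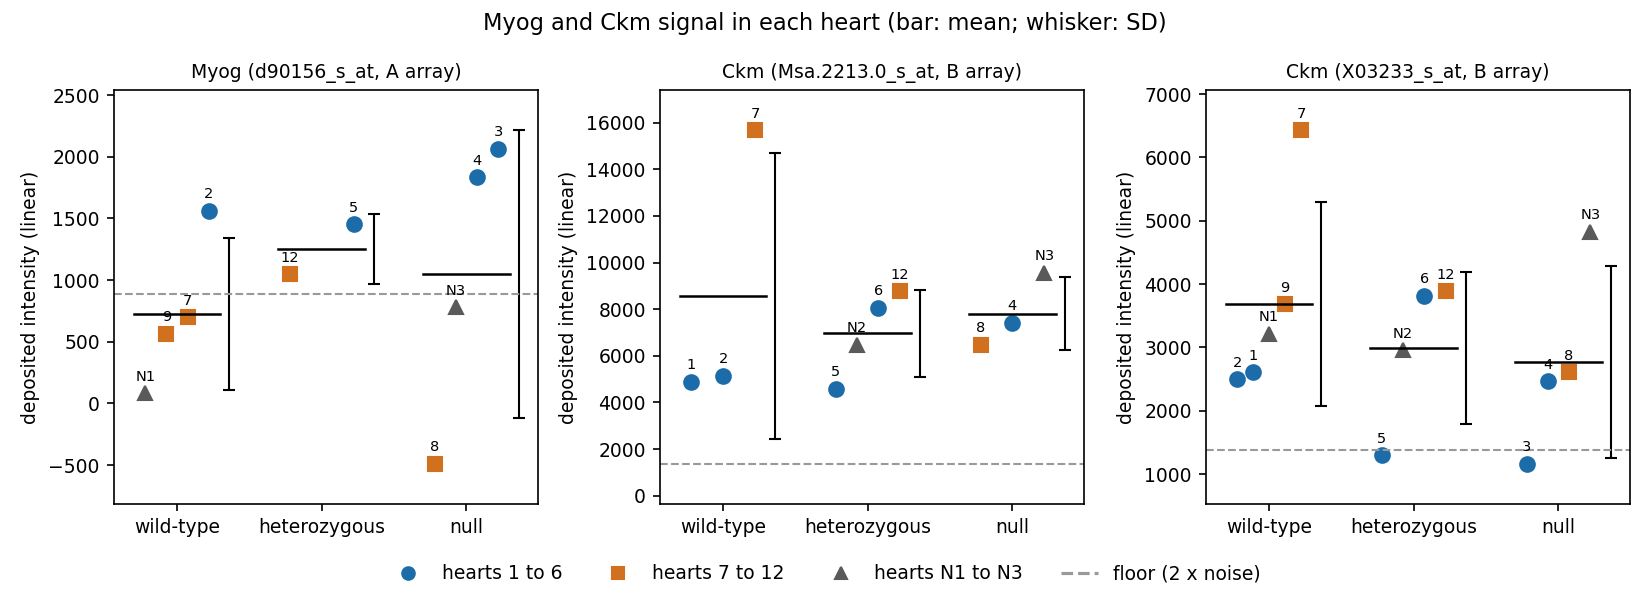
Deposited linear intensity (y axis) of the Myog probe set and the 2 Ckm probe sets in wild-type, heterozygous and null hearts; each point is 1 heart with its number, the bar is the mean, the whisker the SD and the dashed line the floor. Myog is highest in hearts 2, 3, 4 and 5, all of the lot numbered 1 to 6, whereas both Ckm probe sets are highest in wild-type heart 7.

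Myog values divided by heart number. The 4 hearts of the lot 1 to 6 with a value (2, 3, 4 and 5) lay between 1454 and 2064 with a mean of 1728 ± 275 (SD, n = 4). The 6 other hearts with a value (7, 8, 9, 12, N1 and N3) lay between -488.9 and 1049 with a mean of 448 ± 559, and 5 of them were under the floor. The lots did not overlap, and each genotype showed the same order: heart 2 above the 3 other wild-type hearts, heart 5 above heart 12, and null hearts 3 and 4 above hearts 8 and N3. Myog was the 1 member of 3 without overlap between lots, which occurred in 7.17% of the 4494 tested probe sets in either direction and, with the other hearts lower, in 3.76% of them. The labels do not say what the heart numbers stand for, and the split at heart 6 was chosen after results had been seen. Hearts 7 to 12 (4 hearts) and the N hearts (3 hearts) were pooled as the other hearts, a choice that the labels do not give. The N hearts have no place in the numbering, and no order in time is meant. Without the N hearts the log2 difference of Myog was -0.84. Myog was 1 of 341 probe sets called there, of 4238 tested, and nothing is read from this call.

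On the log2 scale with the floor, Myog was lower in the other hearts than in hearts 1 to 6 by a difference of -0.88 ± 0.14 (SE) with genotype in the limma model. Within genotypes the difference was -0.82 in wild-type (3 other hearts against 1), -0.47 in heterozygous (1 against 1) and -1.13 in null hearts (2 against 2). Because 5 of the 6 values in the other hearts sat at the floor, this size was set by the floor. It was -1.36 with the floor at 1 times the noise and -0.35 at 3 times, where Myog was no longer called. The ties at the floor also narrowed the SE, which is no measure of precision here. Before flooring the values of the other hearts had an SD of 559. Without the filter on low values the log2 difference was -0.88 again but not called. Myog also passed the filter mainly through hearts 1 to 6, which held 4 of its 5 values above the floor. Passing the filter and differing between the lots are therefore not independent. Myog was the only member called in this comparison, 1 of 3, where 7.14% of all tested probe sets were called. At an unadjusted p under 0.05 it was 3 of 3 members, against 24.7% of all probe sets. The members were chosen with this comparison in view, so nothing is read from these counts.

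Ckm was readily measured. By the Msa probe set its signal was above the floor in all 10 hearts with a value. It was 4895 in wild-type heart 1, 5140 in heart 2 and 15663 in heart 7, a mean of 8566 ± 6148 (SD, n = 3) that heart 7 set apart from the other wild-type hearts. In heterozygous hearts it was 4581 in heart 5, 6471 in N2, 8062 in heart 6 and 8760 in heart 12, with a mean of 6968 ± 1858 (n = 4). In null hearts it was 6472 in heart 8, 7408 in heart 4 and 9556 in N3, with a mean of 7812 ± 1581 (n = 3). All heterozygous and null hearts lay between the lowest and the highest wild-type heart except heterozygous heart 5, which was the lowest of all.

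The X03233 probe set of Ckm had a value in all 13 hearts and was above the floor in 11. Its values in wild-type hearts 9 and N1 and null heart 3 came from mostly blank B arrays (71.4%, 71.4% and 80.6% blank). In wild-type hearts it was 2500 in heart 2, 2609 in heart 1, 3212 in N1, 3679 in heart 9 and 6426 in heart 7, with a mean of 3685 ± 1604 (SD, n = 5). In heterozygous hearts it was 1301 in heart 5, which is under the floor, 2954 in N2, 3817 in heart 6 and 3889 in heart 12, with a mean of 2990 ± 1204 (n = 4). In null hearts it was 1164 in heart 3, also under the floor, 2466 in heart 4, 2606 in heart 8 and 4824 in N3, with a mean of 2765 ± 1518 (n = 4). The means ran from wild-type over heterozygous to null, but neighbours in this order differed by less than the SD of either group. By the Msa probe set the order of means was wild-type, null, heterozygous, again within the spread.

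Between genotypes no member was called. For null against wild-type hearts the log2 difference was 0.36 ± 0.29 (SE) for Myog, 0.07 ± 0.39 for Ckm by the Msa probe set and -0.44 ± 0.39 by the X03233 probe set. For heterozygous against wild-type hearts it was 0.27 ± 0.36, -0.12 ± 0.37 and -0.31 ± 0.39, in the same order of probe sets. For null against heterozygous hearts it was 0.09 ± 0.36, 0.19 ± 0.37 and -0.13 ± 0.41. Deposited values separated 0 of the 3 members between genotypes without overlap, where 2.34%, 5.94% and 8.06% of the tested probe sets were so separated in these comparisons. limma called 0 of the 3 members in each comparison, where it called 0.0223%, 0% and 0% of the 4494 tested probe sets. At an unadjusted p under 0.05 there were also 0 members, against 2.4%, 3.38% and 5.79% of all probe sets. With 2 to 5 values per genotype, differences of these sizes could not be told from the spread, and no call does not show that the genotypes were alike. Of the 14 cardiac muscle probe sets, 14 were higher in null than in wild-type hearts, 0 of them called, with a median log2 difference of 0.28, and 11 of 14 were higher after quantile scaling (median 0.12). Of 8 tested erythroid probe sets, 7 were higher and 0 were called (median 0.38). The part of either list in the members' values was not tested. The comparisons share hearts, so their differences are not independent of each other.

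**Figure D2:**
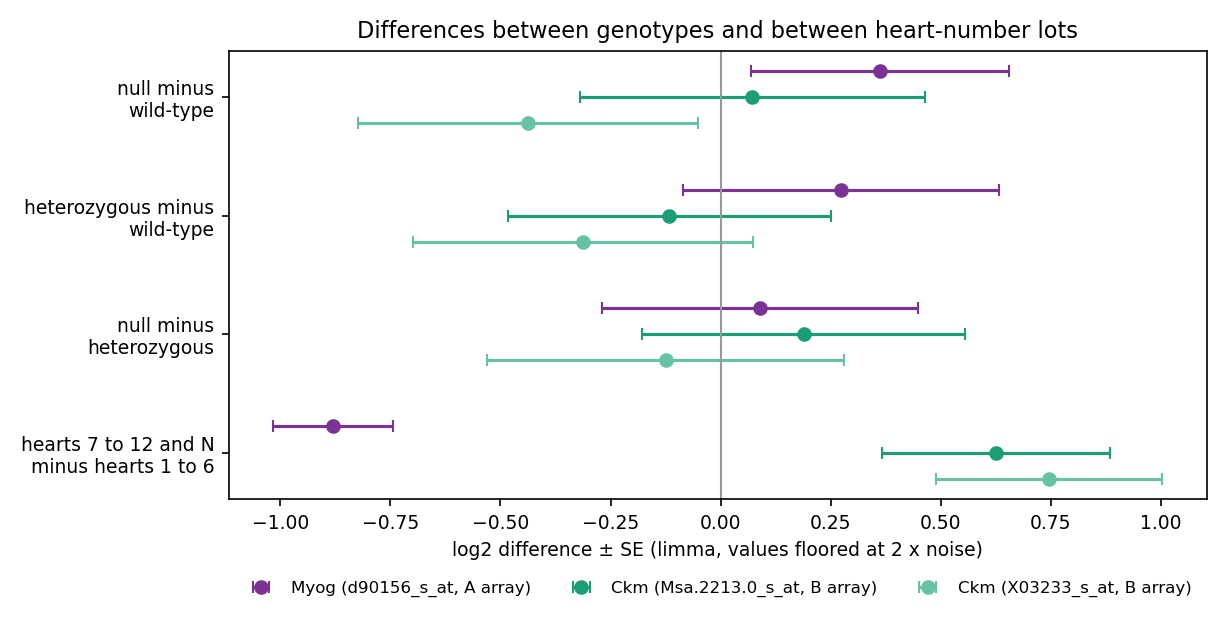
Log2 difference ± SE from limma (x axis, values floored at 2 times the noise) of the Myog and Ckm probe sets for the 3 genotype comparisons and for the other hearts (7 to 12 and N) minus hearts 1 to 6. Genotype differences lie between -0.44 and 0.36, and Myog (-0.88) and Ckm (0.63 and 0.75) lie on opposite sides of 0 in the comparison of lots. Values tied at the floor narrow the SE of Myog in that comparison.

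Single hearts moved the genotype values of Ckm. Without wild-type heart 7 the null minus wild-type difference by the Msa probe set was 0.62 in place of 0.07, and the heterozygous minus wild-type difference was 0.43 in place of -0.12. By the X03233 probe set the heterozygous minus wild-type difference was 0.03 without heterozygous heart 5, and the null minus wild-type difference was -0.14 without null heart 3. Within lots the signs did not hold either. For the Msa probe set, null minus wild-type was 0.56 in hearts 1 to 6 (1 null against 2 wild-type hearts) and -1.28 in hearts 7 to 12 (1 against 1). For the X03233 probe set it was -0.47 in hearts 1 to 6 (2 against 2), -0.90 in hearts 7 to 12 (1 against 2) and 0.59 in the N hearts (1 against 1). For Myog it was 0.32 in hearts 1 to 6 (2 against 1), while in the other lots all null and wild-type values were at the floor. With the lots as a block the null minus wild-type difference of Myog was 0.15, that of the Msa probe set -0.08 and that of the X03233 probe set -0.35.

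For Ckm the mean was higher in the other hearts, where that of Myog was lower. By the Msa probe set the 5 hearts of the lot 1 to 6 with a value averaged 6017 ± 1597 (SD) and the 5 other hearts 9384 ± 3769, with values of 4581 to 8062 and 6471 to 15663 that overlapped. By the X03233 probe set hearts 1 to 6 averaged 2310 ± 975 (n = 6) and the 7 other hearts 3942 ± 1311, from 1164 to 3817 and from 2606 to 6426, again with overlap. The log2 differences with genotype in the model were 0.63 ± 0.26 and 0.75 ± 0.26 (SE), and neither was called. Without heterozygous heart 6 the X03233 difference was 0.94. This probe set was 1 of 282 called there, of 4475 tested, and nothing is read from this call. Within wild-type, heterozygous and null hearts the Msa differences were 1.64 (1 other heart against 2), 0.31 (2 against 2) and 0.09 (2 against 1). For the X03233 probe set they were 0.73 (3 against 2), 0.57 (2 against 2) and 0.95 (2 against 2). Without wild-type heart 7 the difference by the Msa probe set was 0.22. After quantile scaling the differences were 0.65 and 0.65, and that of Myog -0.97.

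Other measures moved between the lots as well, and their part in these differences was not tested. Between the lots 7.14% of all tested probe sets were called, and 24.7% had an unadjusted p under 0.05 in limma. Of the 14 cardiac muscle probe sets, 13 were lower in the other hearts than in hearts 1 to 6, 3 of them called, with a median log2 difference of -0.35 against 0.01 over all tested probe sets. After quantile scaling 11 of the 14 were lower and 0 were called in limma. The summed signal of the 4 cardiac probe sets without blanks ranged from 174405 to 314217 in hearts 1 to 6 and from 76640 to 273582 in the other hearts. Erythroid genes, expressed by blood cells inside the heart, differed more widely and in both directions. Of their 8 tested probe sets, 5 were lower and 3 higher in the other hearts, 1 was called, and 6 had an unadjusted p under 0.05, with a median log2 difference of -0.38. The heme synthesis gene Alas2 was higher (1.29 ± 0.31, SE, adjusted p = 0.0328 in limma), and the globin gene Hba-a1 was at -2.12 ± 0.73 without being called. After quantile scaling 6 of 9 tested erythroid probe sets were lower and 0 were called. For the Gapdh control, the 3′ over 5′ signal, a measure of RNA quality, had a log2 ratio that ranged from -0.15 to -0.01 in hearts 1 to 6 and from -0.26 to 0.10 in the other hearts on A arrays, and from -0.10 to 0.06 and from -0.22 to 0.08 on B arrays. The b-Actin control spread more widely, from -0.19 to 0.68 in hearts 1 to 6 and from 0.03 to 1.002 in the other hearts on A arrays, and from 0.15 to 0.47 and from -0.27 to 1.03 on B arrays. Heterozygous heart N2 was the highest for b-Actin on both arrays, and the lots overlapped for both controls.

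Both Ckm probe sets ordered the hearts alike. Over the 10 hearts with a value in both, the log2 values had a Pearson correlation of 0.90 and a Spearman correlation of 0.82. From the top, both ranked heart 7, heart N3, heart 12 and heart 6 in this order, and both ranked heart 5 last. The correlation was 0.91 after centring on genotype means, 0.85 after centring on the means of hearts 1 to 6 and of the other hearts, and 0.82 (Spearman 0.64, n = 8) without hearts 5 and 7, which lay farthest from the median. In each heart both values come from the same B array and share its scaling.

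**Figure D3:**
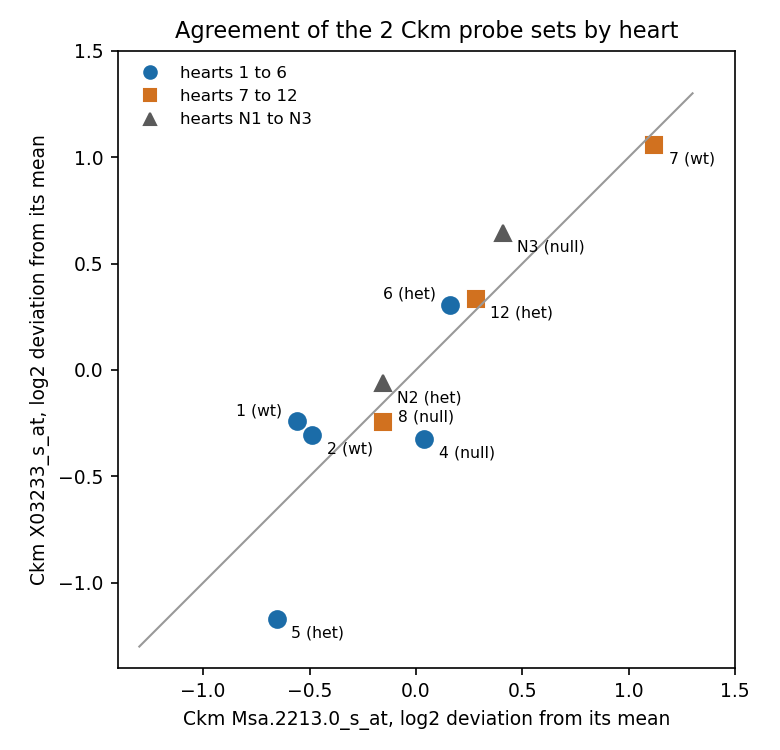
Log2 deviation of each heart from the mean over 10 hearts, by Ckm probe set Msa (x axis) and Ckm probe set X03233 (y axis); the line marks equal deviations and symbols mark heart-number lots. Hearts 7, N3, 12 and 6 are high by both probe sets and heart 5 is low by both, with the widest gap from the line in heart 5 (0.51).

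The deviations of the Ckm probe sets from their means differed by 0.26 (SD over hearts), and by up to 0.51 in heart 5, where the X03233 probe set was under the floor. The heart-to-heart SD was 0.53 for the Msa probe set and 0.62 for the X03233 probe set. The probe sets had values in different hearts. On the hearts with a value in both (3 null and 3 wild-type), the X03233 probe set gave a null minus wild-type difference of -0.15 in place of -0.44, beside 0.07 for the Msa probe set. On the same hearts the null minus heterozygous differences were 0.17 and 0.19. For Myog, with 1 probe set, no such check exists.

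Myogenin's relatives were not measurable in these hearts. Myod1 and Myf5, which commit cells to the skeletal muscle lineage, and Myf6, which acts later in it, were under the floor in every heart with a value. The highest values were 291 for Myod1 (9 hearts), 196 for Myf5 and 44.7 for Myf6 (13 hearts each). Myog was thus the only one of the 4 factors with any heart above the floor. Of the E proteins that pair with myogenin, Tcf4 (1292 to 3144) and Tcf12 (1154 to 1908) were above the floor in all 9 hearts with a value. Tcf3, another E protein, was above it in 2 of 13 hearts and was not tested. The Id proteins, which sequester E proteins, were measurable as Id1 (4385 to 9050), Id2 (7568 to 11220) and Id3 (5801 to 8324), although Id1 and Id2 each had another probe set under the floor and Id4 was under it in all 10 hearts with a value. In this list of partners and inhibitors, 6 of 10 genes were tested, 0 were called in any comparison, and 0 had an unadjusted p under 0.05 in limma. The median null minus wild-type difference was -0.11, against -0.01 over all tested probe sets. MEF2 factors cooperate with the myogenic factors and are also cardiac. Among them, Mef2d by probe set aa408983_rc_g_at was called higher in the other hearts than in hearts 1 to 6 (0.62 ± 0.17, adjusted p = 0.0383 in limma). That comparison called 7.14% of all tested probe sets. After quantile scaling Mef2d was at 0.52 with an adjusted p of 0.11. Its other probe sets, aa408983_rc_at and aa409010_rc_at, were above the floor in 3 and 0 of 12 hearts and did not pass the filter. Mef2c, the other MEF2 gene tested, was at 0.04 ± 0.13 between lots.

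Within the creatine kinase family, Ckb, the brain isoform that predominates early in the embryonic heart, was measured by 2 probe sets of the kind that can match several family members. M74149_f_at on the A array ranged from 3627 to 5437 and the other, on the B array, from 4098 to 7344, and both were above the floor in all hearts with a value. Their null minus wild-type log2 differences were -0.33 ± 0.16 and -0.06 ± 0.25 (SE), and between lots they were 0.17 ± 0.15 and 0.16 ± 0.19. The remaining Ckb probe set and that of Ckmt1, a mitochondrial isoform, were under the floor in all hearts. Apart from Ckm, the family therefore had 0 called probe sets of 2 tested in all 4 comparisons, and 0 with an unadjusted p under 0.05. Gamt, the last enzyme of creatine synthesis, ranged from 2552 to 4266, with a null minus wild-type difference of -0.13 ± 0.19.

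Most other genes of skeletal muscle were under the floor. A list of contractile genes and a list of excitation, calcium and metabolic genes covered 23 genes on the arrays by 31 probe sets, and 24 of these were never above the floor. They included the embryonic and perinatal myosins Myh3 and Myh8, the fast myosin light chain Mylpf, the troponin Tnnc2, the acetylcholine receptor subunits Chrna1, Chrnb1 and Chrnd, the receptor kinase Musk, and the calcium channel and release genes Cacna1s and Ryr1. The genes above the floor in all hearts with a value were Acta1, Myl1, Tnni2, Eno3 and Pygm. Embryonic heart is known to express Acta1, and the Myl1 and Tnni2 probe sets are of the kind that can match several family members. In null against wild-type hearts 0 of the 5 tested probe sets were called.

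**Figure D4:**
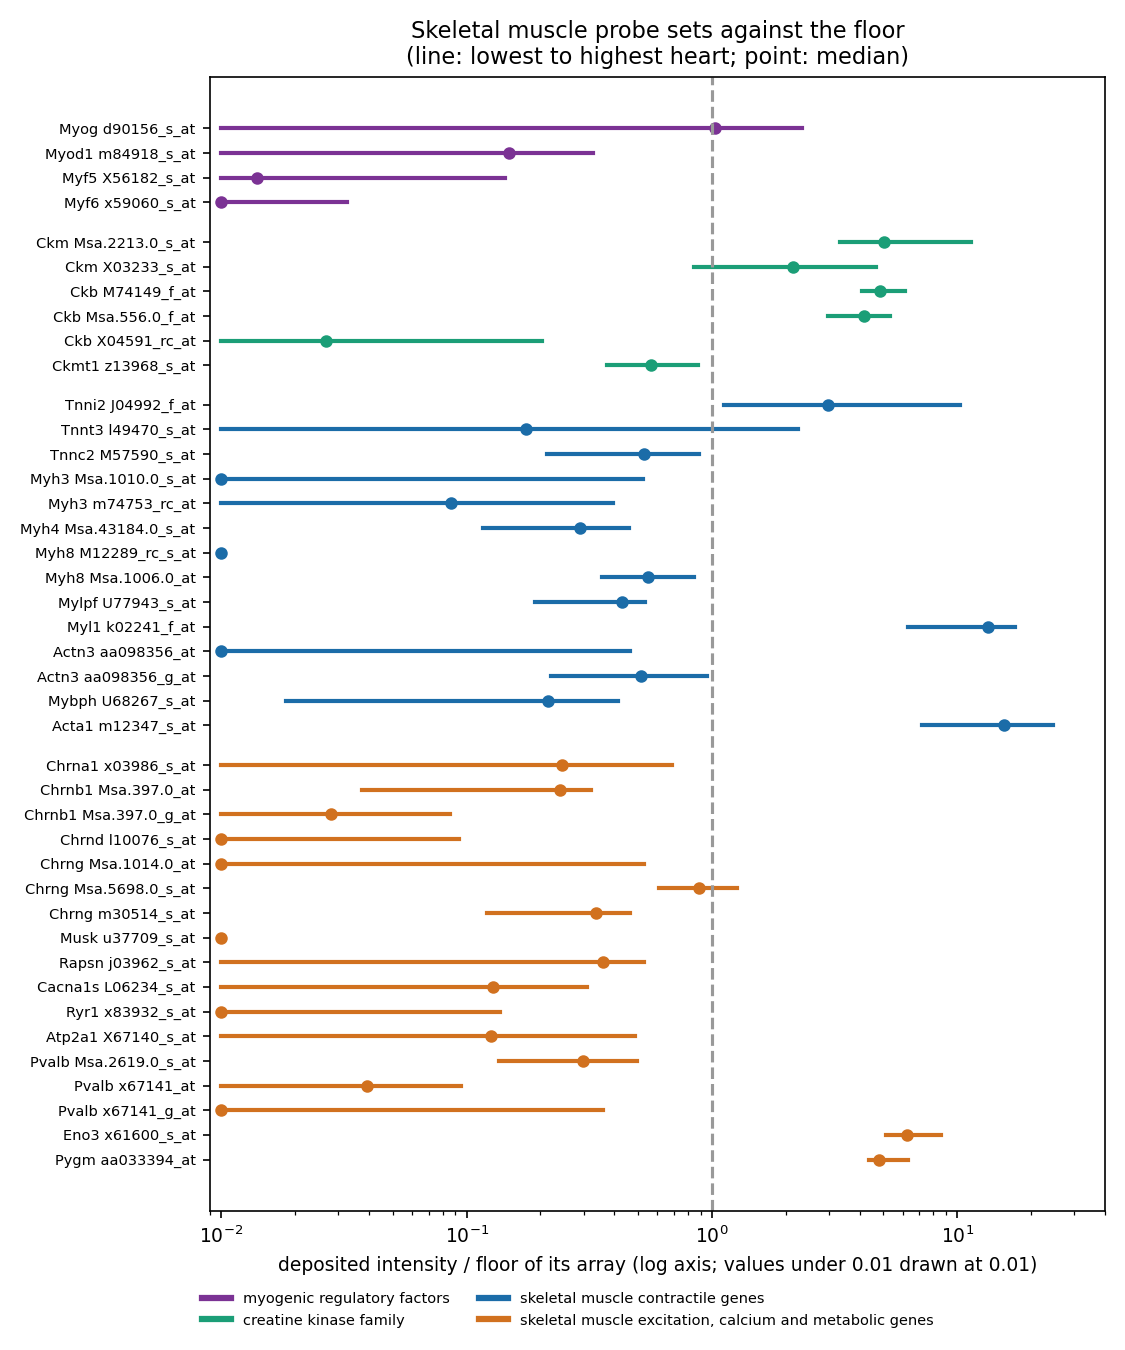
Deposited intensity divided by the floor of its array (log x axis) for the probe sets of 4 gene lists; lines run from the lowest to the highest heart, points are medians, and the dashed line marks the floor. Ckm, Ckb (except probe set X04591_rc_at), Tnni2, Myl1, Acta1, Eno3 and Pygm reach above the floor in all or nearly all hearts with a value. Myog, Tnnt3 and 1 Chrng probe set straddle it, and the other probe sets lie below it.

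Tnni2, the fast skeletal troponin I, was the skeletal gene with the widest difference between genotypes. It was 993.1 to 2290 in wild-type hearts, 2213 and 3055 in heterozygous hearts, and 4959, 4184, 2997 and 9144 in null hearts 3, 4, 8 and N3. The null minus wild-type log2 difference was 1.83 ± 0.33 (SE, adjusted p = 0.113 in limma). Null heart N3, the highest for Tnni2, was also the only heart with Tnnt3, the fast skeletal troponin T, above the floor (2000), a gene chosen after its values were seen. The same heart was second for Ckm by both probe sets, while its Myog value of 779.2 was under the floor. Myl1 was lower in the other hearts than in hearts 1 to 6, as Myog was (-0.73 ± 0.19, adjusted p = 0.038 in limma). That comparison called 7.14% of all tested probe sets. After quantile scaling the adjusted p of Myl1 was 0.0658, with a difference of -0.68. Acta1 was at -0.73 ± 0.21 in null against wild-type hearts and at -0.20 ± 0.19 between lots.

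Markers of tissues next to the heart gave little signal, as did many probe sets on these arrays. Whether cells of these tissues were present was not tested. None of 5 cartilage and bone genes on the arrays was above the floor in any heart, and of 7 neuron and glia genes only Gap43 was (1005 to 1919). Of 6 liver genes, 4 were never above the floor, while Afp by both probe sets and Serpina1a by 1 of 2 exceeded it in 2 hearts each. The muscle precursor genes Pax3, Met, Eya1 and Lbx1 were under the floor in all hearts with a value. Cdh15, a cadherin of muscle precursors, exceeded the floor in 4 of 9 hearts by 1 probe set and in 0 of 10 by the other, and Ncam1, a cell adhesion gene also of other tissues, was measured by 2 of 6 probe sets.

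The genes with the most similar pattern were sought by Pearson correlation of log2 values over hearts, among tested probe sets that shared at least 8 hearts and were above the floor in no fewer of them than below it. The likeness is a description. For Myog, 3142 probe sets were compared over up to 10 hearts, and the closest with a symbol were Rnaseh2a (0.98), a subunit of ribonuclease H2, Cers2 (0.93), a ceramide synthase, Platr25 (0.93), Ciao2b (0.92) and Uqcrq (0.92), a complex III subunit. The median correlation over all compared probe sets was -0.06 and the 95th percentile 0.76. All 5 were lower in the other hearts, by log2 differences of -0.46 to -0.80, as their choice by likeness to Myog made likely. In that comparison 4 of them (not Ciao2b) were called, against 7.14% of all tested probe sets, and nothing is read from this count. Of the 10 Myog values 5 were tied at the floor, and the points share each heart's array, since all 5 genes are on the A array. Platr25 was under the floor in the same hearts as Myog (7, 8, 9, N1 and N3), and Rnaseh2a in hearts 8, 9, 12, N1 and N3. Their correlations with Myog therefore include hearts tied at the floor in both genes.

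For Ckm by the X03233 probe set, 4140 probe sets were compared. The closest were Flot2 (0.92), a membrane scaffold protein, Ckm itself by the Msa probe set (0.90), Sqstm1 (0.90), an autophagy receptor, Acadl (0.88), an enzyme of fatty acid oxidation, and Cdkn2c (0.88), a cell cycle inhibitor, over 9 or 10 hearts. For the Msa probe set, 2868 were compared, and the other Ckm probe set was closest (0.90, n = 10), ahead of Trip12 (0.87), Pald1 (0.86), Rhbdl3 (0.85) and Neurl4 (0.83) over 8 to 10 hearts. Apart from Ckm itself no gene was among the closest 5 of both Ckm probe sets. Acadl and Sqstm1 were called higher in the other hearts than in hearts 1 to 6 (0.68 ± 0.16 and 0.57 ± 0.12, adjusted p = 0.0271 and 0.0221 in limma), where 7.14% of all tested probe sets were called. Both were chosen by likeness to Ckm, whose mean was also higher there, so nothing is read from these calls. Among the other closest genes of Ckm, Rhbdl3 was at -0.02 in that comparison and Flot2, Cdkn2c, Trip12, Pald1 and Neurl4 at 0.16 to 0.45 without being called.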

How the data were processed

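The A array held 6584 probe sets and the B array 6595, and both were hybridised with each heart. Probe set values are intensity on a linear scale as deposited; their software is not given in the sources used here. Of an array's values 10.1% to 29.5% were negative, which shows a subtracted background. The authors had scaled the arrays: the mean between the 2 and 98 percentiles was 1500 on each array that had no blank cells (7 A, 9 B). Blank cells were treated as missing. Noise was estimated per table from the negative values, as their root mean square (443.5 on A, 686.4 on B), and values were raised to 2 times the noise before taking log2. Probe sets with at least 4 arrays above this floor and 2 values per genotype were tested (4494; control probe sets left out) by limma 3.58.1 under R 4.3.3, separately per table, with a variance trend, two-sided tests, Benjamini-Hochberg adjustment over both tables and a threshold of 0.05. The fits were tested on simulated data, with normal spread and no floor, for null against wild-type hearts only. That test does not cover values tied at the floor, such as those of Myog, or the comparison of lots. Gene symbols of the platform annotation were updated through gene IDs in RefSeq (GRCm38.p6). The number of arrays limits the precision, and p-values measure only the spread between these hearts.

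Members and lists were chosen with earlier results of these data known. Named were all Myog and Ckm probe sets, the tested probe sets of the myogenic factor, creatine kinase and contractile lists, other skeletal genes with an unadjusted p under 0.05 in null against wild-type hearts (0 genes), and for each member the 5 most similar probe sets with a symbol. Other genes are named for whole lists or after their values were seen. Alternatives were quantile scaling, floors of 1 and 3 times the noise, no filter, heart-number lots as a block, and left-out arrays and hearts.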

Additional observations from a re-analysis of the deposited data

How the results depend on the processing

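No paired analysis was possible because the genotypes share no heart number. No genotype difference of Myog or Ckm was called under any alternative run. Leaving out 1 heart at a time moved null minus wild type between 0.15 and 0.57 for Myog, between -0.22 and 0.62 for the Msa and between -0.74 and -0.14 for the X03233 probe set of Ckm (log2); Myog could not be tested without heterozygous heart 5 or 12. Between lots the ranges were -0.91 to -0.81, 0.22 to 0.84 and 0.60 to 0.94, and the X03233 probe set was called at 0.94, without heterozygous heart 6. The Myog difference between lots was -1.36 with the floor at 1 times the noise and -0.35 at 3 times, where it was not called. Nor was it called without the filter. By its construction the floor bounds this difference, and values tied at the floor narrow its SE and its range on leaving out hearts.

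The count of called probe sets over both tables was 1 for null against wild type. It became 0 after quantile scaling, without the filter, without the mostly blank arrays and without the N hearts, 2 with the lower floor and 4 with lots as a block, and ranged from 0 to 3 with 1 heart left out. For heterozygous against wild type it became 1 without the filter. For null against heterozygous it became 1 without the filter and 1 with lots as a block. Between lots it was 321, and became 136 after quantile scaling, 6 without the filter and 192 without the mostly blank arrays, with 103 to 342 on leaving out 1 heart. The cause of these changes was not tested. Weak signal over background limits Myog, whose values below the floor carry no order.

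Added after seeing the data, the Ckm probe sets' correlation of 0.90 was 0.82 without the 2 farthest hearts and 0.85 centred on lots.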
